A study of Mus musculus with 31 samples.

Results

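The dual-specificity MAP kinase phosphatases described here were the 10 genes Dusp1, Dusp2, Dusp4, Dusp5, Dusp6, Dusp7, Dusp8, Dusp10, Dusp14 and Dusp16, taken by symbol from the 52636 genes of the expression table. The family was chosen on its transcript levels by group in these same mice, so the differences between groups given for its members are a description. In the main comparisons of groups, counts of members at a threshold are printed beside the share or number of all genes at it, also as a description. These counts are no evidence independent of that choice. The correlations within groups, given after the comparisons, have no such share. The data were transcript levels in the caudate putamen (CPu, the dorsal striatum) of 31 mice labelled female, aged 8 to 11 weeks, on a C57BL/6NTac background. Of these, 8 were wild-type (WT) mice given vehicle, 7 were Brd1+/- mice given vehicle, 8 were WT mice given imipramine (IMN, a tricyclic antidepressant) at 10 mg/kg, and 8 were Brd1+/- mice given IMN at the same dose. Brd1+/- mice carry a targeted deletion in 1 of the copies of Brd1, a chromatin reader and scaffold of histone acetyltransferase complexes, and all mice were injected subcutaneously on consecutive days and went through swim and suspension tests before tissue was taken. The study asked what reduced Brd1 changes in the striatum and whether an antidepressant acts on it. Values were TPM, a transcript level scaled for gene length and library size, and differences are log2 fold changes on the log2(TPM + 1) scale with their standard error (SE).

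MAP kinases are switched on by phosphorylation of a threonine and a tyrosine in their activation loop, and a dual-specificity phosphatase removes both phosphates. Several of these enzymes are made only after the kinases have been active, which closes a negative feedback loop on ERK, JNK and p38 signaling. In striatal medium spiny neurons, dopamine and glutamate receptors both feed into ERK, and the same stimuli switch on immediate early genes.

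The upstream sequences of the members were examined because several members are known as activity-induced genes, for which cyclic AMP response elements and CArG boxes (the binding element of serum response factor) are common entry points. RefSeq promoter sequences (GRCm38.p6) were found for 9 of the 10 members, and Dusp4 was not among them. Over the 250 bases before each transcription start, the palindromic element TGACGTCA was present in 1.55% of 32851 promoters and, among the members, in those of Dusp1 and Dusp8. The shorter core TGACG, which lies within the palindrome, was present in 17.8% of promoters and in those of Dusp1, Dusp5, Dusp8 and Dusp16, searched on both strands. CArG boxes were present in 1.47% of promoters and, among the members, in that of Dusp5, which had 2 side by side. The AP-1 element TGANTCA (6.75% of promoters) was in none of the 9. The stretches that hold these letters are shown for Dusp1 (chr17:26508578-26508693, minus strand), Dusp5 (chr19:53529033-53529108, plus strand) and Dusp8 (chr7:142095310-142095421, minus strand), 5′ to 3′, with TGACG cores (CGTCA on the other strand), palindromes and CArG boxes in capitals.
Dusp1: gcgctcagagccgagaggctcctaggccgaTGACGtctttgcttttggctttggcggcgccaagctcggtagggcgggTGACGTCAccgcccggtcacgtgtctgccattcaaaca
Dusp5: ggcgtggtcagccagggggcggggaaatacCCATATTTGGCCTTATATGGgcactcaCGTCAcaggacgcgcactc
Dusp8: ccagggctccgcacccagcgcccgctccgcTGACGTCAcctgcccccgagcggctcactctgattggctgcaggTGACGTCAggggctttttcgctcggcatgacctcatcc
These matches describe letters only, and no binding was measured in these mice.

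Brd1 was measured first as a check of the genotype labels. It was at 22.5 ± 2.97 TPM (SD, n = 8) in WT vehicle, 13.4 ± 2.02 TPM (n = 7) in Brd1+/- vehicle, 19.9 ± 2.67 TPM (n = 8) in WT IMN and 12.8 ± 1.04 TPM (n = 8) in Brd1+/- IMN mice, and the genotypes did not overlap under either treatment. The punches were less uniform than the labels. The summed level of 10 striatal medium spiny neuron markers ran from 286 to 10406 TPM in WT vehicle mice, from 8457 to 9809 TPM in Brd1+/- vehicle mice, from 5033 to 9277 TPM in WT IMN mice and from 6840 to 9706 TPM in Brd1+/- IMN mice. The summed level of 10 cortical excitatory neuron markers ran from 12.5 to 2016 TPM, 21.0 to 241 TPM, 12.005 to 1099 TPM and 16.2 to 399 TPM in the same order of groups. A cortical marker score (mean log2(TPM + 1) of those 10 genes) above 4 was found in 6 of 8 WT vehicle mice (mice 1 to 5 and 7), in 2 of 8 WT IMN mice (mice 5 and 8) and in 0 Brd1+/- mice; the lowest of these 8 scores was 4.47 and the highest among the other 23 mice was 3.79. The cortical marker Emx1 was at 0 in some mice of low score, and no striatal marker was at 0 in any mouse. The members' differences that involve WT mice are given below with all mice and then for named members without these 8 mice, a comparison chosen after the scores had been seen. Y-linked transcripts summed to 26.8 TPM in WT vehicle mouse 7, against at most 0.188 TPM in any other mouse, which goes against the female label of that library. It is 1 of the 8 mice of high cortical marker score. Without it the calls described below for Dusp5 between genotypes under vehicle and for Dusp1 and Dusp7 with IMN in WT mice were lost, and those for Dusp1, Dusp6 and Dusp7 with IMN over both genotypes were kept.

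**Figure D1:**
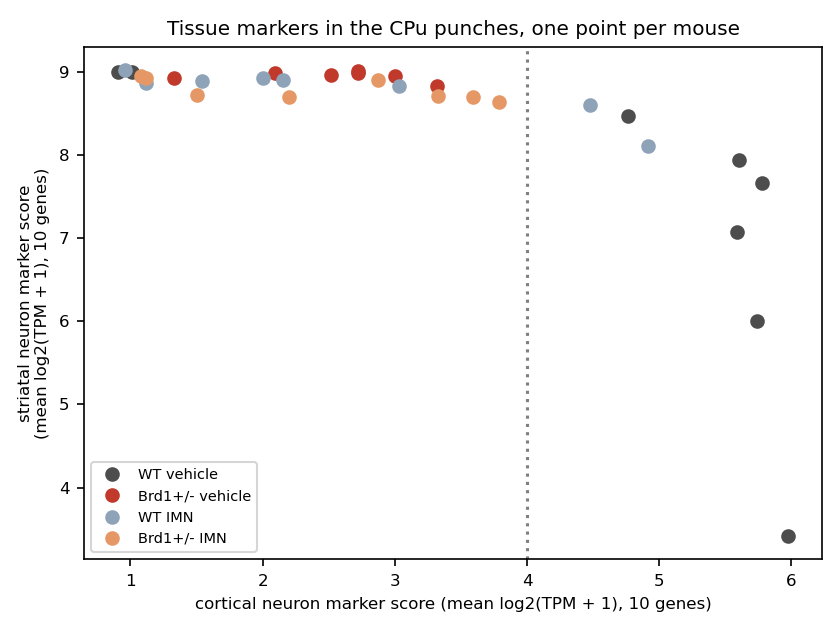
Striatal and cortical marker scores of each mouse, as mean log2(TPM + 1) over 10 genes each, 1 point per mouse, colored by group. The 8 WT mice with a cortical score above 4 stand to one side of all other mice, and no Brd1+/- mouse is among them.

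All 10 members were above 0 TPM in all 31 mice, and all 10 passed the low-value filter of every comparison. Dusp14, a small atypical phosphatase that lacks the kinase-binding domain of the classical members, was the most abundant at a mean of 79.9 TPM over all mice. Dusp8, which acts on JNK and p38, followed at 60.1 TPM, below Dusp14 in 25 of 31 mice. Dusp7 and Dusp6, the cytoplasmic phosphatases of ERK, were at 38.7 and 29.995 TPM. Dusp1, a nuclear phosphatase of p38, JNK and ERK and a classical immediate early gene, was at 28.3 TPM. Dusp6 exceeded Dusp1 in only 20 of 31 mice, so that this neighboring pair was the least separated of the order. Dusp5, a nuclear phosphatase specific to ERK, was at 9.74 TPM and below Dusp1 in 31 of 31 mice. The JNK and p38 phosphatases Dusp16 and Dusp10 were at 6.24 and 3.97 TPM, and the nuclear, inducible Dusp4 and Dusp2 were lowest at 2.48 and 0.623 TPM. Summed over the family, levels were 300.1 ± 47.9 TPM in WT vehicle, 274 ± 46.2 TPM in Brd1+/- vehicle, 243 ± 31.8 TPM in WT IMN and 225 ± 23.5 TPM in Brd1+/- IMN mice. In bulk tissue, fewer cells that express a gene and less of its RNA per cell cannot be told apart.

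**Figure D2:**
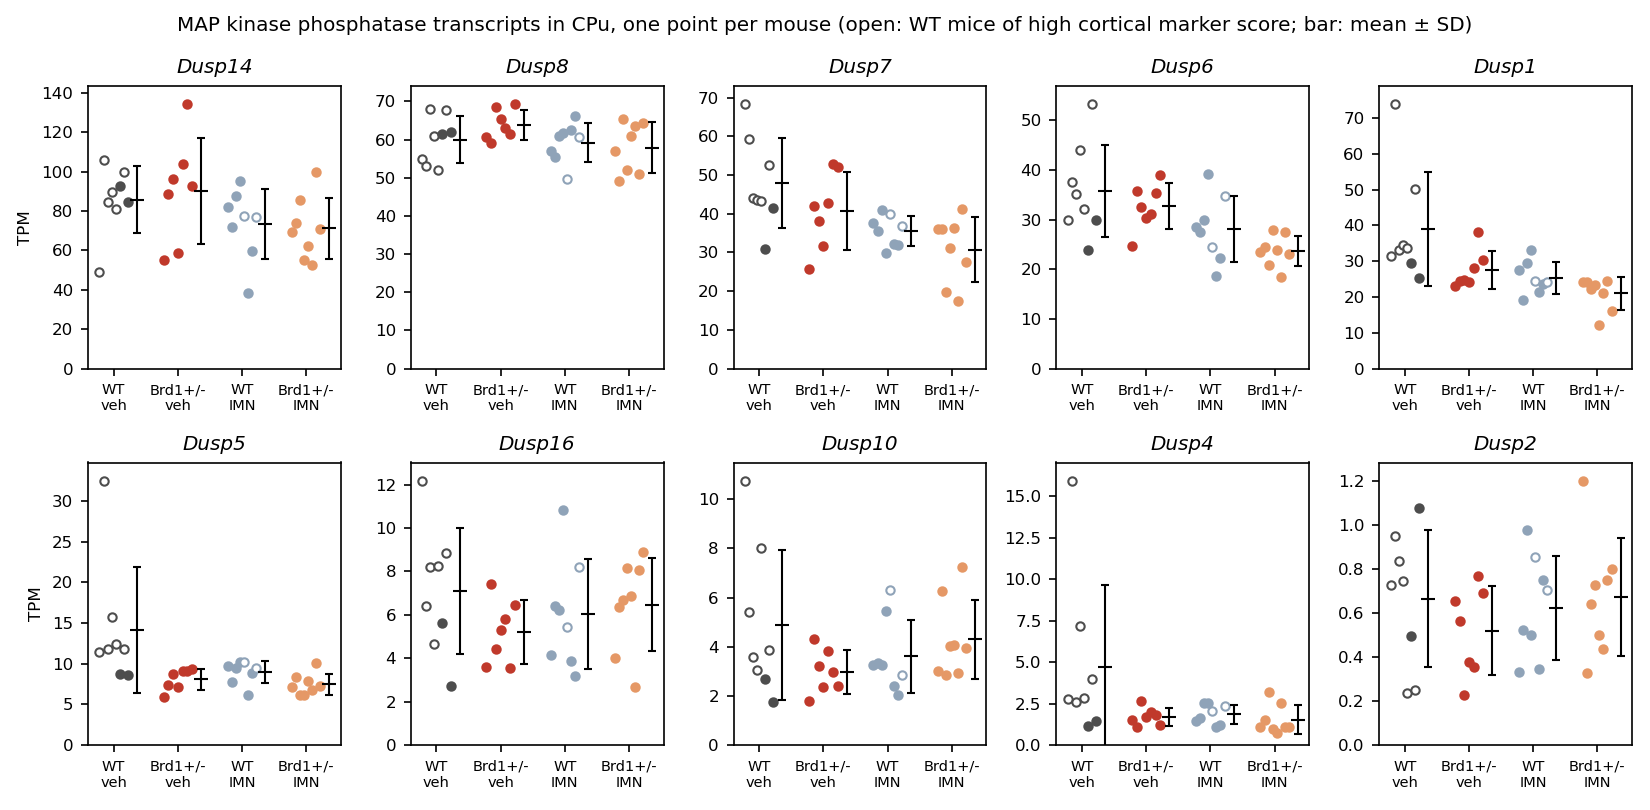
TPM of each phosphatase gene by group, 1 point per mouse, with bars for the mean ± SD (the axis starts at 0 and cuts the lower SD bar of Dusp4 in WT vehicle mice). Open points are the 8 WT mice of high cortical marker score; Dusp6 in Brd1+/- IMN mice lies between 18.5 and 27.9 TPM, against 24.7 to 39.0 TPM in Brd1+/- vehicle mice.

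The first comparison asked how IMN acted in Brd1+/- mice, where all punches had low cortical marker scores. The ERK phosphatase Dusp6 (chr10:99263231-99267489, plus strand, GRCm38) was lower with IMN. Its lowest, median and highest levels were 24.7, 32.6 and 39.0 TPM in the 7 vehicle mice and 18.5, 23.7 and 27.9 TPM in the 8 IMN mice. The groups overlapped, but 6 of 8 IMN mice lay below the lowest vehicle mouse and 8 of 8 below the vehicle median. The mean with IMN was 72.4% of that with vehicle, a log2 fold change of -0.45 ± 0.10 (SE). Dusp6 was the only 1 of the 10 members at p under 0.01 in limma. Of all 23020 genes tested, 1.83% were at that level and 0.964% were at that level and lower. At p under 0.05 were 4 members, against 1633 of the 23020 genes. At a false discovery rate (FDR) of 5% there were 0 members and 0 genes. The median over the members was -0.14, against 0.01 over all genes.

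When any of the 15 mice was left out, the log2 fold change of Dusp6 lay between -0.51 and -0.40. Beside it, Dusp1 was at 23.1, 24.8 and 38.0 TPM (lowest, median, highest) in vehicle and 12.04, 22.9 and 24.6 TPM in IMN mice, a log2 fold change of -0.39 ± 0.15. Dusp7, the closest relative of Dusp6, gave -0.41 ± 0.19 and Dusp14 -0.31 ± 0.18 (-0.20 without Brd1+/- vehicle mouse 6). Dusp10 went the other way, at 1.77, 2.99 and 4.33 TPM in vehicle and 2.84, 3.99 and 7.23 TPM in IMN mice, a log2 fold change of 0.39 ± 0.18. None of these passed the threshold, nor did Dusp5 (-0.10 ± 0.11) and Dusp8 (-0.14 ± 0.07). In the same comparison the median log2 fold change was -0.05 over the 10 cortical markers, -0.19 over the 10 striatal markers, all 10 of which had negative values with 1 at p under 0.01 (Drd1, -0.19 ± 0.06), and 0.46 over 7 oligodendrocyte markers, all 7 of which had positive values with 0 at p under 0.01; their part in the Dusp values was not tested.

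In WT mice, all 10 members had negative log2 fold changes with IMN, as did 67.5% of 23579 genes. The median over the members was -0.29, against -0.08 over all genes. Without the 8 WT mice of high cortical marker score these medians were -0.02 and 0.02. Dusp1 (chr17:26505590-26562128, minus strand) was at 25.4, 33.4 and 73.8 TPM in the 8 vehicle mice and 19.1, 24.4 and 33.1 TPM in the 8 IMN mice, all of which lay below the vehicle median. Its log2 fold change was -0.54 ± 0.18. Dusp7 (chr9:106368632-106375724, plus strand) was at 31.02, 43.8 and 68.3 TPM in vehicle and 29.8, 36.1 and 40.9 TPM in IMN mice, a log2 fold change of -0.39 ± 0.13. For both genes the groups overlapped, with the spread among vehicle mice the wider. These were the 2 of 10 members at p under 0.01 in limma, both lower. Of 23579 genes, 6.95% were called and 5.6% were called and lower. At p under 0.05 were 4 members, against 5453 of the 23579 genes. At a FDR of 5% there were 0 members and 1 gene. Dusp6 gave -0.33 ± 0.16 with all mice, against -0.45 in Brd1+/- mice. This WT value did not hold without the WT mice of high cortical marker score, as given below. Dusp4 and Dusp5 gave -0.70 ± 0.33 and -0.50 ± 0.20, or -0.43 and -0.32 without WT vehicle mouse 2.

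Between the same groups the cortical markers had a median log2 fold change of -2.08 and the striatal markers one of 1.48, and 2 of 5 erythrocyte markers were lower at p under 0.01 (median -0.54). With each mouse's cortical marker score as a covariate 0 members were called and the log2 fold changes were -0.39 for Dusp1 and -0.21 for Dusp7, and with the striatal score, again with 0 called, -0.26 and -0.20. Without the 8 WT mice of high cortical marker score, 2 vehicle and 6 IMN mice were left, 0 of 10 members were at p under 0.01 (2.09% of all genes were) and the log2 fold changes were -0.11 for Dusp1, -0.06 for Dusp7 and 0.01 for Dusp6. These smaller groups still differed in tissue markers, with a median of 1.24 over 8 cortical markers and of -0.83 over 5 erythrocyte markers, 3 of which were lower at p under 0.01. With all mice, both calls were lost under median-of-ratios or quantile scaling, and they lay close to the threshold. That of Dusp1 was lost without any 1 of WT vehicle mice 4, 5 and 7 or WT IMN mice 1, 2, 5, 6, 7 and 8, and that of Dusp7 without any 1 of WT vehicle mice 1, 2 and 7 or WT IMN mice 2, 4, 6 and 7, with log2 fold changes between -0.56 and -0.47 for Dusp1 and between -0.39 and -0.32 for Dusp7 in those fits.

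Over both genotypes, in an additive fit of genotype and treatment added after the values had been seen, 3 of 10 members were at p under 0.01, all lower with IMN: Dusp6 (-0.39 ± 0.10), Dusp1 (-0.47 ± 0.12) and Dusp7 (-0.40 ± 0.12). Of all 25394 genes 5.49% were called and 4.18% were called and lower. At p under 0.05 were 6 members, against 4186 of the 25394 genes. At a FDR of 5% there were 0 members and 107 genes. For Dusp7, 16 of 16 IMN mice lay below the median of the 15 vehicle mice, for Dusp1 15 of 16 and for Dusp6 14 of 16. The groups overlapped for all 3 genes. Without WT vehicle and WT IMN mice of high cortical marker score, Dusp6 alone was at p under 0.01 (log2 fold change -0.32 ± 0.11, with 3.51% of all genes called), and Dusp1 and Dusp7 were both at -0.31. In the WT mice of that fit taken alone, Dusp6 was not lower with IMN, as given above. Over all mice the median log2 fold change was -1.08 for the cortical, 0.68 for the striatal and -0.33 for the 5 erythrocyte markers, 2 of which were called. Without those 8 mice it was 0.20 for the cortical and -0.16 for the striatal markers, 4 of 10 of which were lower at p under 0.01, and -0.34 for the erythrocyte markers with 0 called. When Brd1+/- vehicle mouse 1 was left out, Dusp5 joined the called members at -0.35.

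**Figure D3:**
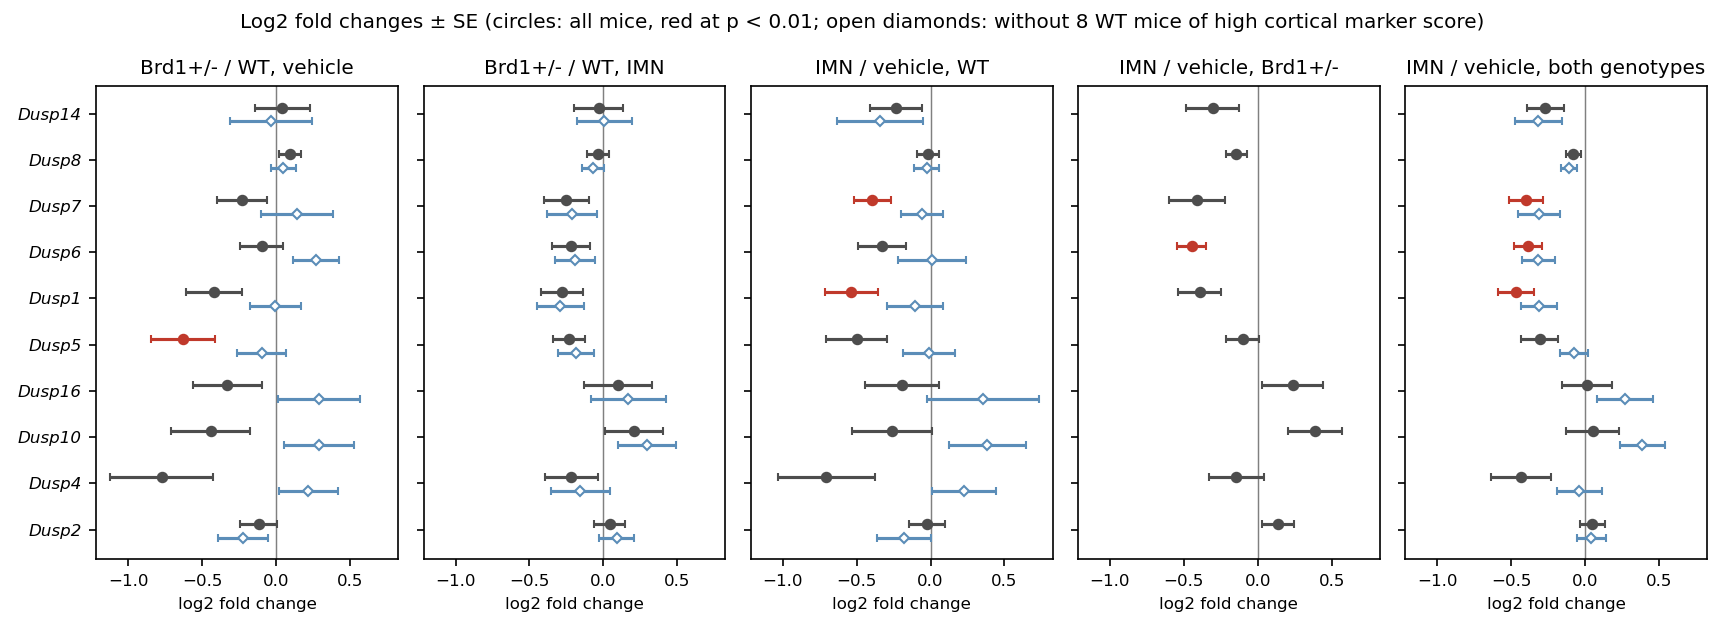
Log2 fold changes, on the log2(TPM + 1) scale, of the 10 phosphatase genes in each comparison, with bars for the SE. Values for IMN lie mostly below 0, and Dusp6 in Brd1+/- mice is at -0.45.

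The comparison of genotypes under vehicle asked what reduced Brd1 changed without drug. Dusp5 (chr19:53529109-53542431, plus strand) was at 8.62, 11.9 and 32.5 TPM in the 8 WT mice and 5.90, 8.69 and 9.38 TPM in the 7 Brd1+/- mice. All 7 Brd1+/- mice lay below the WT median, and 6 of 8 WT mice lay above the highest Brd1+/- mouse. Its log2 fold change was -0.63 ± 0.22, and it was the 1 of 10 members at p under 0.01, where 13.6% of 23200 genes were called and 12.1% were called and lower. The family's share was thus no higher than that of all genes. At p under 0.05 were 3 members, against 7168 of the 23200 genes. At a FDR of 5% there were 0 members and 0 genes.

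Dusp4 gave -0.78 ± 0.35 (-0.51 without WT vehicle mouse 2) and Dusp1 -0.42 ± 0.19, and Dusp8 and Dusp14, the most abundant members, gave 0.09 ± 0.07 and 0.04 ± 0.19. Median-of-ratios scaling, which moved the median of all genes from -0.13 to 0.0023, put Dusp8 at 0.28 and past the threshold. For Dusp4, levels were 1.17, 2.81 and 15.9 TPM in WT and 1.06, 1.70 and 2.67 TPM in Brd1+/- mice. The highest WT values of Dusp1, Dusp4 and Dusp5 all came from WT vehicle mouse 2, which had the lowest striatal marker sum of the group (286 TPM) and the highest cortical score (5.98). Across this comparison the cortical markers had a median log2 fold change of -2.03 and the striatal markers one of 1.63. Without the 6 WT mice of high cortical marker score 2 WT mice were left, 0 members were called (0.892% of all genes were) and the log2 fold changes were -0.10 for Dusp5, -0.01 for Dusp1 and 0.22 for Dusp4. The 2 WT mice left had low cortical marker scores, and the cortical markers then differed in the opposite direction, with a median log2 fold change of 1.69 and 4 of 10 higher in Brd1+/- mice at p under 0.01. The call of Dusp5 was also lost without any 1 of WT vehicle mice 1, 3, 4, 5 and 7 or any 1 of the 7 Brd1+/- mice, at log2 fold changes from -0.66 to -0.57. Among other settings, it was lost without the low-value filter, under the replicate block and with the cortical or striatal marker score as a covariate.

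Under IMN the genotypes were compared in the same way. None of the 10 members was at p under 0.01 in limma, against 0.703% of 23339 genes. At p under 0.05 there was 1 member, against 914 of the 23339 genes. The log2 fold changes lay between -0.28 for Dusp1 (-0.17 without Brd1+/- IMN mouse 5) and 0.21 for Dusp10. The latter was 0.11 without Brd1+/- IMN mouse 7 and 0.31 without WT IMN mouse 5. Dusp5 was at 6.15, 9.48 and 10.2 TPM in WT and 6.14, 7.24 and 10.1 TPM in Brd1+/- mice, with a log2 fold change of -0.23 ± 0.11. Without WT IMN mouse 6 it passed the threshold at -0.30. Without the 2 WT IMN mice of high cortical marker score 0 members were called (0.734% of all genes were), and the log2 fold changes were -0.29 for Dusp1, -0.19 for Dusp5 and 0.30 for Dusp10. The median log2 fold change with all mice was -0.15 over the cortical, 0.02 over the striatal and 0.49 over the 5 erythrocyte markers, 1 of which was higher at p under 0.01, and without those 2 mice the cortical median was 0.67 and the erythrocyte median 0.53, with 1 called. Whether IMN acted differently in the 2 genotypes was tested as an interaction. In it 0 of 10 members were at p under 0.01, against 3.74% of 25394 genes. At p under 0.05 were 0 members, against 4119 of the 25394 genes. The largest term was that of Dusp10 (0.65 ± 0.34), and that of Dusp6 was -0.12 ± 0.20. When a mouse was left out, they lay between 0.49 and 0.79 and between -0.20 and -0.04. Without the 8 WT mice of high cortical marker score 0 members were called (0.597% of all genes were), the term of Dusp10 was 0.0055 ± 0.34 and that of Dusp6 -0.46 ± 0.23, and the median over the members went from 0.15 to -0.12.

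The genotype term of the additive fit over both treatments was also added after the values had been seen. It put 2 of 10 members at p under 0.01, both lower in Brd1+/- mice, Dusp5 (-0.42 ± 0.12) and Dusp1 (-0.35 ± 0.12). Of 25394 genes, 10.1% were called and 9.33% were called and lower. At p under 0.05 were 4 members, against 6314 of the 25394 genes. At a FDR of 5% there were 0 members and 1 gene. Of the 15 Brd1+/- mice, 14 lay below the median of the 16 WT mice for Dusp5 and 13 for Dusp1, and the groups overlapped for both. The cortical markers had a median log2 fold change of -1.06 and the striatal markers one of 0.79. Without the 8 WT mice of high cortical marker score 0 members were called (1.03% of all genes were), with Dusp5 at -0.16 and Dusp1 at -0.20, and the cortical median was 1.01. The call of Dusp5 held when any mouse was left out, but not under quantile scaling or with either marker score as a covariate. That of Dusp1 was lost without any 1 of WT vehicle mouse 7, Brd1+/- vehicle mice 1 to 4, WT IMN mice 3 and 4 or Brd1+/- IMN mice 5 and 8, at -0.33 to -0.30. Dusp4 passed the threshold without WT vehicle mouse 6 or Brd1+/- IMN mouse 3, at -0.55 in both fits.

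The other genes of the pathway were taken from lists, some of whose results were already known. Of 15 activity-regulated genes, which neurons switch on within minutes to an hour of stimulation, 5 fell with IMN in Brd1+/- mice and 0 rose at p under 0.01, where 0.964% of all genes were lower at that threshold. They were Egr1 (log2 fold change -0.60 ± 0.09, adjusted p = 0.074 in limma), Arc (-1.12 ± 0.19, adjusted p = 0.0967), Npas4 (-1.12 ± 0.28), Nr4a1 (-0.53 ± 0.16) and Fos (-0.73 ± 0.24). Over both genotypes 6 of the 15 fell, against 4.18% of all genes, with Arc at -1.13 ± 0.14 (adjusted p = 0.000145) and Egr1 at -0.50 ± 0.10 (adjusted p = 0.013) below a FDR of 5%, beside Npas4 (-0.79 ± 0.19), Fos (-1.03 ± 0.25), Ier2 (-0.70 ± 0.19) and Nr4a1 (-0.46 ± 0.14). In WT mice 3 of the 15 fell, Arc (-1.13 ± 0.20), Ier2 (-1.26 ± 0.29) and Fos (-1.31 ± 0.41), against 5.6% of all genes. Without the 8 WT mice of high cortical marker score, where 3.51% of all genes were called in either direction over both genotypes, 4 of the 15 fell, namely Arc (-0.92), Npas4 (-0.96), Egr1 (-0.44) and Egr4 (-0.38), the last of which was not among those 6. In the 8 WT mice then left, 0 of the 15 fell and 1 rose (Nr4a3, 0.92) at p under 0.01 with IMN, the median over the list was -0.03 and Arc was at -0.41 ± 0.20. The Sprouty and Spred genes encode inhibitors of the receptor-to-ERK pathway that, like Dusp6, are induced by ERK itself. Of 6 tested, 2 fell with IMN in Brd1+/- mice (0.964% of all genes did), Spry2 (-0.24 ± 0.07) and Spry4 (-0.32 ± 0.11). Over both genotypes Spry4 (-0.51 ± 0.11, adjusted p = 0.0368) and Spred2 (-0.27 ± 0.09) fell, beside 4.18% of all genes, and without those 8 mice, in the fit where 3.51% of all genes were called, Spry2 (-0.20) and Spry4 (-0.27) did.

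With IMN in Brd1+/- mice, 1.83% of all genes were at p under 0.01 in limma. So were 0 of 12 MAP kinases, the substrates of the phosphatases, and 0 of 7 MAP kinase kinases, their upstream activators. At p under 0.05 there was 1 MAP kinase, Mapk6, and 0 MAP kinase kinases, against 1633 of 23020 genes. Of 8 Ras, Raf and scaffold genes only Hras was lower at p under 0.01 (-0.31 ± 0.10). Of 12 further dual-specificity phosphatase genes, Dusp11 was lower (-0.21 ± 0.07) and Dusp15 higher (0.38 ± 0.11). Between genotypes under vehicle, where 12.1% of all genes were lower and 1.47% higher at p under 0.01, 4 of 13 MAP kinases were lower in Brd1+/- mice, the p38 genes Mapk11 (-2.01 ± 0.58) and Mapk12 (-1.24 ± 0.32), the JNK gene Mapk10 (-0.74 ± 0.20) and Nlk (-0.61 ± 0.18). So were 2 of 7 MAP kinase kinases, Map2k3 (-1.69 ± 0.30) and Map2k4 (-0.63 ± 0.19), 1 of 10 downstream transcription factors (Elk4, -0.56 ± 0.16) and 1 of 15 activity-regulated genes (Ier2, -1.04 ± 0.30), and 2 of 3 tyrosine phosphatases of MAP kinases were higher, the striatum-enriched Ptpn5 (0.90 ± 0.28) and Ptpn7 (1.38 ± 0.45). The tissue markers also differed in this comparison, and without the WT mice of high cortical marker score no MAP kinase and neither tyrosine phosphatase was at p under 0.01, and of the MAP kinase kinases Map2k6 was higher (0.53 ± 0.16) and none was lower at that threshold.

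**Figure D4:**
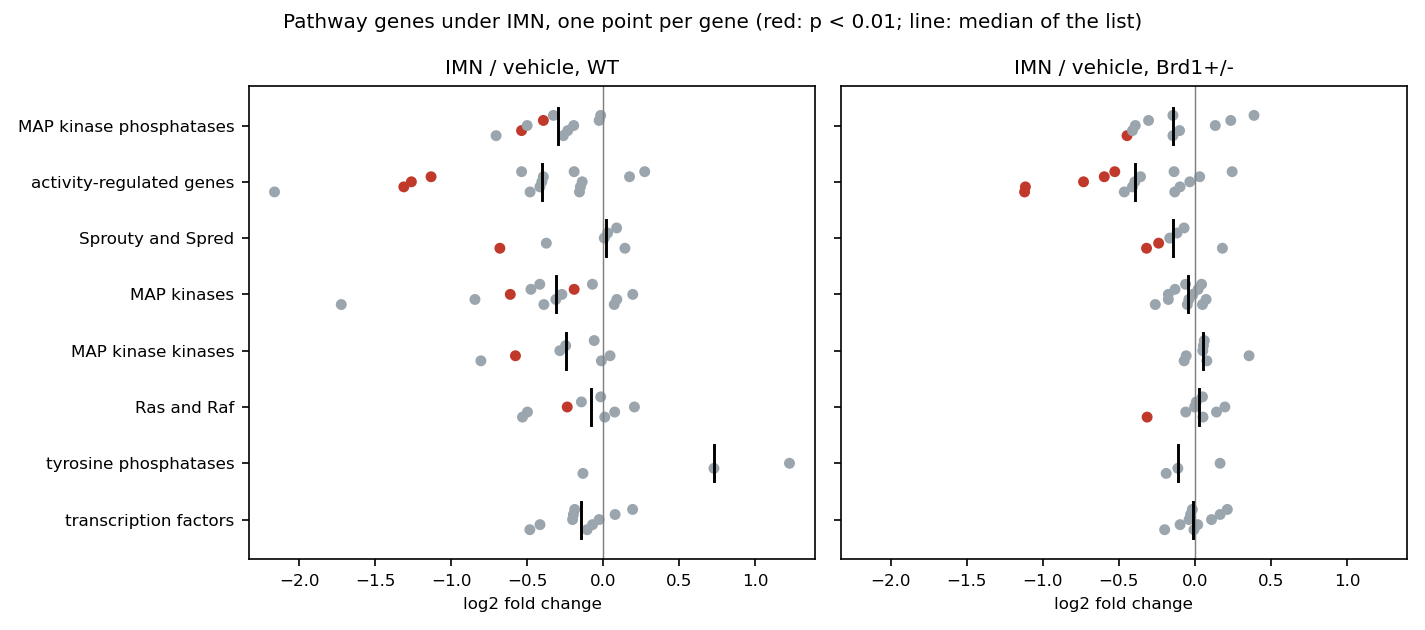
Log2 fold changes, on the log2(TPM + 1) scale, of the genes of each pathway list and of the phosphatases by comparison, 1 point per gene. With IMN in Brd1+/- mice the activity-regulated genes reach down to -1.12, and 0 of the 12 MAP kinases passed the threshold.

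A measure that did not use the group differences was how each member varied from mouse to mouse within the groups. It came from the same libraries, and the members and lists were chosen with earlier results of these data known. Its p-values are therefore no evidence independent of that choice. For each mouse, the deviation of a member's log2(TPM + 1) from its group mean was set against the same deviation of an activity score, the mean over the 15 activity-regulated genes. Of 10 relations over 31 mice, 5 passed a permutation test within groups after Benjamini-Hochberg adjustment. The same test was not run on other genes, so whether 5 of 10 exceeds the share of all genes is not known. Dusp6 rose with the score (Pearson r = 0.71, permutation p = 3e-05, adjusted 0.00015; Spearman rho = 0.65, permutation p = 0.00048), as did Dusp1 (r = 0.68, permutation p = 7e-05, adjusted 0.000233; rho = 0.70, permutation p = 2e-05). Dusp14 gave r = 0.66 (permutation p = 2e-05, adjusted 0.00015; rho = 0.67, permutation p = 8e-05), Dusp4 r = 0.65 (permutation p = 0.00075, adjusted 0.00187; rho = 0.65, permutation p = 0.00036) and Dusp5 r = 0.62 (permutation p = 0.00103, adjusted 0.00206; rho = 0.60, permutation p = 0.00074). The other 5 did not pass, with r from -0.16 for Dusp2 to 0.31 for Dusp7, and Dusp8, the abundant member with 2 palindromic elements in its promoter, was at -0.04.

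Leaving out the 2 mice whose deviation of the activity score lay farthest from the median deviation, WT vehicle mouse 8 and Brd1+/- vehicle mouse 1, gave r = 0.69 for Dusp6, 0.64 for Dusp1, 0.69 for Dusp14, 0.62 for Dusp4 and 0.54 for Dusp5. Over the 23 mice left without the 8 WT mice of high cortical marker score, r was 0.54 for Dusp6, 0.65 for Dusp1, 0.81 for Dusp14, 0.43 for Dusp4 and 0.56 for Dusp5. Dusp10, at 0.29 over all mice, was at 0.49 over these 23 mice and at 0.08 without the 2 mice above, and the other 4 members lay between -0.12 and 0.29 over the 23 mice. No permutation test was run on the sets with mice left out. All values of a mouse come from 1 library, so the members and the score share its depth and tissue.

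**Figure D5:**
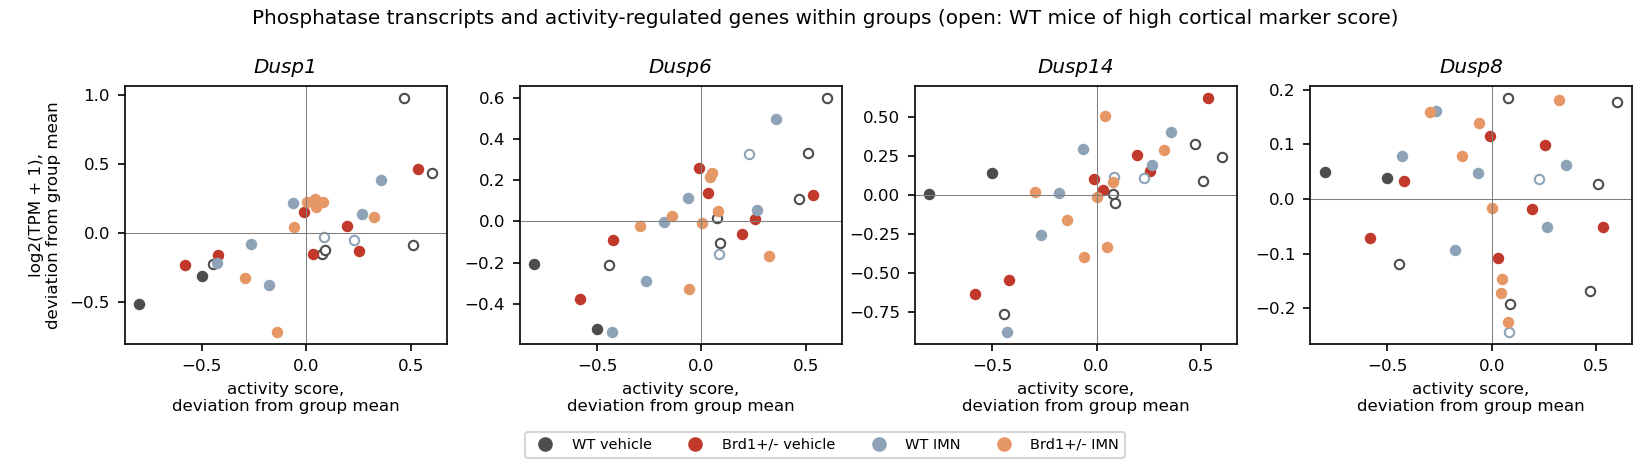
Deviation of Dusp1, Dusp6, Dusp14 and Dusp8 from the group mean of log2(TPM + 1) against the deviation of the activity score, 1 point per mouse, with WT mice of high cortical marker score as open points. Dusp1, Dusp6 and Dusp14 rise with the score (r = 0.68, 0.71 and 0.66), and Dusp8 does not (r = -0.04).

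The genes whose pattern over the 31 mice was most like that of each member, by the same deviations and among genes at a mean of at least 1 TPM, are given as a description. Dusp6 was nearest to Egfem1 (r = 0.73), Egr1 (0.70) and the diacylglycerol kinase Dgkg (0.69). Dusp1 was nearest to Tdg-ps (0.81), the transcription factor Klf2 (0.81) and Sat1 (0.80). Dusp14 had the nuclear receptor Nr4a1 (0.77) among its nearest 3, and Dusp7 was nearest to Dusp3 (0.81), another phosphatase of ERK. The nearest genes were Fam19a2 for Dusp4 (0.92), Tmem200c for Dusp5 (0.85), Gaa for Dusp8 (0.84), Igfbp5 for Dusp10 (0.89), Snx18 for Dusp16 (0.78) and Mir1198 for Dusp2 (0.62). Within the family, Dusp4 and Dusp5 were the most alike (r = 0.72), but without the 2 mice whose Dusp4 deviation lay farthest from the median deviation r was 0.39. Whether the counting used strand was not stated, so reads of Dusp5 and of an antisense gene that overlaps it over 547 bases of exon cannot be told apart.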

How the data were processed

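Right CPu punches of 31 mice were sequenced by the authors as 50-base single-end reads; per the labels and the study's methods, reads were trimmed (Trimmomatic), aligned to GRCm38 with HISAT2 2.1.0 and assembled against Ensembl gene models with StringTie 1.3.4. The deposited values were TPM per gene, 1 column per mouse, with 0 columns unused; each column summed to between 999787 and 999918. TPM does not show how many reads lie behind a value, and no depth per mouse was known. The authors' own test used edgeR on counts, which were not used here. Of 52636 gene identifiers, 52403 had a name.

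Differences were tested with limma 3.58.1 (R 4.3.3; eBayes with trend, two-sided) on log2(TPM + 1), over genes above 0.1 TPM in at least 7 mice of the comparison, each pair of groups fitted on its own, with Benjamini-Hochberg adjustment over all genes tested. A gene was called at an unadjusted p under 0.01, the nominal threshold of the study. Counts at a FDR of 5%, which the study also used, were given beside it. Correlations used 100000 permutations within groups. Mice are separate animals, and p-values measure the spread between them. All 10 members are named; of each other list, counts at p under 0.01 were given with examples for the comparisons described. The members and lists were chosen with earlier results of these data known. Alternatives were another pseudocount (0.1), other filters, scalings and weights, a replicate block, marker scores as covariates and leaving out mice. The scripts were tested on simulated data. Promoters were read from RefSeq (GRCm38.p6).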

Additional observations from a re-analysis of the deposited data

Results flagged for a closer look

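Of 40 sets of values (10 members in 4 groups), 3 held a mouse far from the others of its group by Dixon's test, where chance gives about 1 in 20. Dusp4 was highest in WT vehicle mouse 2 at 15.9 TPM, with the next mouse at 7.16 TPM. Dusp5 was highest in the same mouse at 32.5 TPM, with the next at 15.8 TPM. Dusp14 was lowest in WT vehicle mouse 1 at 48.98 TPM, with the next at 81.0 TPM. WT vehicle mice 1 and 2 are both among the 8 WT mice of high cortical marker score, and the part of tissue composition in these values was not tested.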

How the results depend on the processing

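Across the settings other than leaving out a mouse, 382 of 438 single-gene values kept their direction and their side of p under 0.01, and 711 of 758 did when a mouse was left out. The number of members called between genotypes under vehicle (1) was 0 without the low-value filter, under the replicate block, with the cortical or striatal marker score as a covariate and without the WT mice of high cortical marker score, and 3 with sample quality weights, which called 26.5% of all genes (the replicate block 17.7%, the other settings named 0.892% to 9.6%); leaving out a mouse gave 0 to 1. Under IMN the count between genotypes was 0, and 0 to 1 when a mouse was left out. For IMN in WT mice (2), it was 0 under median-of-ratios or quantile scaling, with either marker score as a covariate and without the mice of high cortical marker score, 1 under the replicate block and 4 with sample quality weights, which called 20.3% of all genes (the other settings named 1.2% to 5.98%); leaving out a mouse gave 0 to 2. For IMN in Brd1+/- mice (1), it was 2 with the cortical covariate, where Dusp10 joined Dusp6, and 1 in every fit that left out a mouse. Over both genotypes (3), it was 1 without the mice of high cortical marker score, and 3 to 4 when a mouse was left out. For genotype over both treatments (2), it was 1 under median-of-ratios scaling and 0 under quantile scaling, with either marker score as a covariate and without the mice of high cortical marker score, and 1 to 3 when a mouse was left out. The cause of these changes was not tested. The interaction gave 0 throughout.

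Median-of-ratios scaling moved the median of all genes between genotypes under vehicle from -0.13 to 0.0023. In that comparison Dusp6 changed sign under median-of-ratios (0.090) and quantile scaling (0.090), with the cortical covariate (0.11) and without the mice of high cortical marker score (0.27). Dusp7 did with the cortical covariate (0.0042) and without those mice (0.14), as did Dusp4 (0.22) and Dusp10 (0.29) without them. Dusp14 was -0.0063 with sample weights, -0.033 without those mice and between -0.069 and 0.15 when a mouse was left out. For IMN in WT mice, Dusp8 was 0.11 and 0.14 under median-of-ratios and quantile scaling and between -0.044 and 0.018 when a mouse was left out, and without those mice Dusp4 was 0.23 and Dusp6 0.0097. The interaction term of Dusp5 was -0.034 with the striatal covariate and -0.090 without those mice. Same-numbered mice had a median r of 0.0063 between the vehicle groups, -0.04 between the WT groups and 0.06 between the Brd1+/- groups. Single pairs ran from -0.43 to 0.45 between the WT groups and from -0.08 to 0.23 between the Brd1+/- groups. With so few pairs, these values neither show nor exclude a pairing by number. The mice of high cortical marker score were chosen after seeing the data. TPM without counts leaves the precision of Dusp2, at 0.623 TPM, unknown.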

Other observations

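Among the phosphatase genes outside the family, Dusp26 (86.8 TPM), Dusp11 (79.0 TPM) and Dusp3 (64.7 TPM) were as abundant as the leading members, while Dusp21 and Styxl1 were listed at 0 in all mice.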
